A study of Mus musculus with 2 samples.

Results

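Platelet-derived growth factor (PDGF) and vascular endothelial growth factor (VEGF) ligands and the PDGF receptors are 10 genes of the 18193 with a named probe set on the array: Pdgfa, Pdgfb, Pdgfc, Pdgfd, Pdgfra, Pdgfrb, Vegfa, Vegfb, Vegfc and Pgf. They were chosen by gene name, and each of the 21 probe sets that the platform annotation assigns to exactly 1 of these symbols was used. The study's question was which transcripts of osteoblasts, the cells that form bone, differ when the cells meet secreted factors of PC-3 or of MDA-PCa2b prostate cancer cells. It used primary mouse osteoblasts held for 6 hours in medium conditioned by PC-3 cells, and the same kind of cells held in medium conditioned by MDA-PCa2b cells. Every culture had been differentiated for 10 days with ascorbic acid and beta-glycerophosphate and starved of serum overnight. PC-3 and MDA-PCa2b are human lines grown from prostate tumours that had spread to bone, the first known for bone-destroying lesions and the second for bone-forming ones. Each medium is represented by 1 Affymetrix mouse array, so no SD or p-value between media exists. Osteoblasts kept without either medium were not analysed here, and "higher" and "lower" mean PC-3 medium against MDA-PCa2b medium. Since the title of the PC-3 sample includes the letters MDA as well, its group was taken from its source description.

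PDGF chains form dimers that bind receptor tyrosine kinases on mesenchymal cells and drive their division and migration. The A and C chains act mainly through the receptor encoded by Pdgfra, the D chain mainly through that encoded by Pdgfrb, and the B chain through either. VEGF-A, the main inducer of blood vessel growth, is made by osteoblasts and is a known product of the hypoxia response. Its relatives VEGF-B and placental growth factor (Pgf) bind the receptor Flt1, and VEGF-C acts through Flt4 on lymphatic endothelium.

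Upstream sequences are shown for the ligand genes Vegfa and Pdgfc, which differed between the media in opposite directions and whose RefSeq start (GRCm38.p6) coincides with the outer end of the gene model, so that the 250 bases lie wholly outside the gene. The sequences are from RefSeq, 5′ to 3′ on the strand of the gene, and capitals mark the GC box GGGCGG or its complement CCGCCC, the letters bound by Sp1-type factors. The Vegfa stretch is chr17:46032378-46032627, minus strand, and the Pdgfc stretch is chr3:81036166-81036415, plus strand.
Vegfa: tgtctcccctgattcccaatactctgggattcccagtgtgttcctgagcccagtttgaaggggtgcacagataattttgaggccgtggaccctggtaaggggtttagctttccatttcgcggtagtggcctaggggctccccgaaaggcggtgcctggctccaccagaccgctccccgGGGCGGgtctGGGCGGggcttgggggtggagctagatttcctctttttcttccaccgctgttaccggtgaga
Pdgfc: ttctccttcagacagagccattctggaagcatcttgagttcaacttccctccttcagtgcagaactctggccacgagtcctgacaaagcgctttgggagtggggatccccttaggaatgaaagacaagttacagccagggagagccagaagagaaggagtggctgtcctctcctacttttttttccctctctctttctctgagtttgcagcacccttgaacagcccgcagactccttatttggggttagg
The Vegfa stretch held 2 GC boxes and the Pdgfc stretch 0. The core of the hypoxia response element, ACGTG or CACGT, was found 0 times in either stretch, which says nothing about sites outside these windows. Of the 10 genes 8 had an entry in the promoter table that was used here, with 11 start sites in all. Entries on 1 chromosome were left out for these genes, but not among all windows of the table. A gene without a window here may therefore still have a listed start. A GC box stood in 7 of these 11 windows, against 32.7% of all 32851 windows of the table, and the hypoxia core in 1 of 11, against 16.6%; that window is the other listed start of Vegfa, inside its gene model. No GC box overlapped a hypoxia core in these 11 windows. Of the other measured genes, Pdgfa (lower) held 1 and 2 GC boxes in its windows, Vegfc (below 0) 2 and Vegfb (above 0) 4. Pdgfra (higher) and Pdgfd (below 0) held 0. Whether GC boxes go with the direction of a ratio was not tested.

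The arrays had equal scale, with a trimmed mean signal of 300.0 on each. Signals are intensities of single probe sets and cannot be set against each other between genes. A signal at or under the median of its array (57.7 with PC-3 medium and 56.7 with MDA-PCa2b medium) was treated as a floor. Probe sets of a common gene scattered around that gene's mean log2 ratio with an SD of 0.24 over 4924 genes, and with 0.30, 0.23 and 0.18 in the lowest, middle and highest tertile of signal. This scatter describes measurement on these arrays and leaves the variation between cultures unknown. The osteoblast matrix genes Col1a1 (signals of 20052 with PC-3 medium and 20109 with MDA-PCa2b medium) and Ibsp (15794 and 17106, in the same order) were strong, and all 8 osteoblast markers with a named probe set were above the floor on each array. Of 12 endothelial markers 11 were at the floor on both arrays, among them Pecam1, Cdh5, Kdr and Tek. The other, Erg, was above it, with 231 in PC-3 medium and 225 in MDA-PCa2b medium. Of 12 macrophage and osteoclast markers 11 were above the floor on each array, among them Lyz2 and Csf1r, and the summed signal of the list, most of it from Lyz2 and Ctsk, was 23521 with PC-3 medium and 23184 with MDA-PCa2b medium. Their log2 ratios ran from -0.51 (Cx3cr1) to 0.82 (Fcgr1), with 0.59 for Cd68 and 0.45 for Acp5, and 7 of 11 were above 0, where 44.1% of all measured genes were. Of these 7, Lyz2 (0.03), Adgre1 (0.06), Mpeg1 (0.17) and Itgam (0.21) lay within the scatter at their signal. The 4 below 0 were Cx3cr1, Ptprc (-0.23), Csf1r (-0.19) and Ctsk (-0.02).

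In PC-3 medium the PDGF ligand genes Pdgfa and Pdgfc were lower, and the receptor genes Pdgfra and Pdgfrb and the ligand gene Vegfa higher, by every one of their probe sets. Of the 10 genes 8 were above the floor on both arrays, and of these 4 had a log2 ratio above 0 (Pdgfra, Vegfa, Pdgfrb and Vegfb) and 4 below 0 (Pdgfa, Pdgfd, Vegfc and Pdgfc). Only Pdgfa differed at least 2-fold by its brightest probe set: 1 of 8 genes was at least 2-fold lower, where 1.68% of the 10649 genes measured on both arrays were, and 0 of 8 were at least 2-fold higher, where 1.90% were. At 1.5-fold by the brightest probe set, 2 of 8 were higher and 3 of 8 lower, where 5.18% and 6.23% of all genes were. Of those lower, only Pdgfa passed 1.5-fold by every measured probe set. The other measured probe sets gave a log2 ratio of -0.03 for Pdgfd and of -0.11 for Vegfc. Of those higher, Pdgfra passed it by every probe set and Vegfa by its brightest alone. By single probe sets, 1 of the 17 measured, that of Pdgfra described below, was at least 2-fold higher and 2, those of Pdgfa, at least 2-fold lower, where 1.95% and 1.43% of all named probe sets were. The median log2 ratio of the 8 genes was -0.15, against -0.04 for all measured genes; it was 0.05 without probe sets of the _x_at and _s_at kind. In bulk RNA a smaller number of cells that express a gene and less RNA per cell cannot be told apart, which holds for every ratio below.

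**Figure D1:**
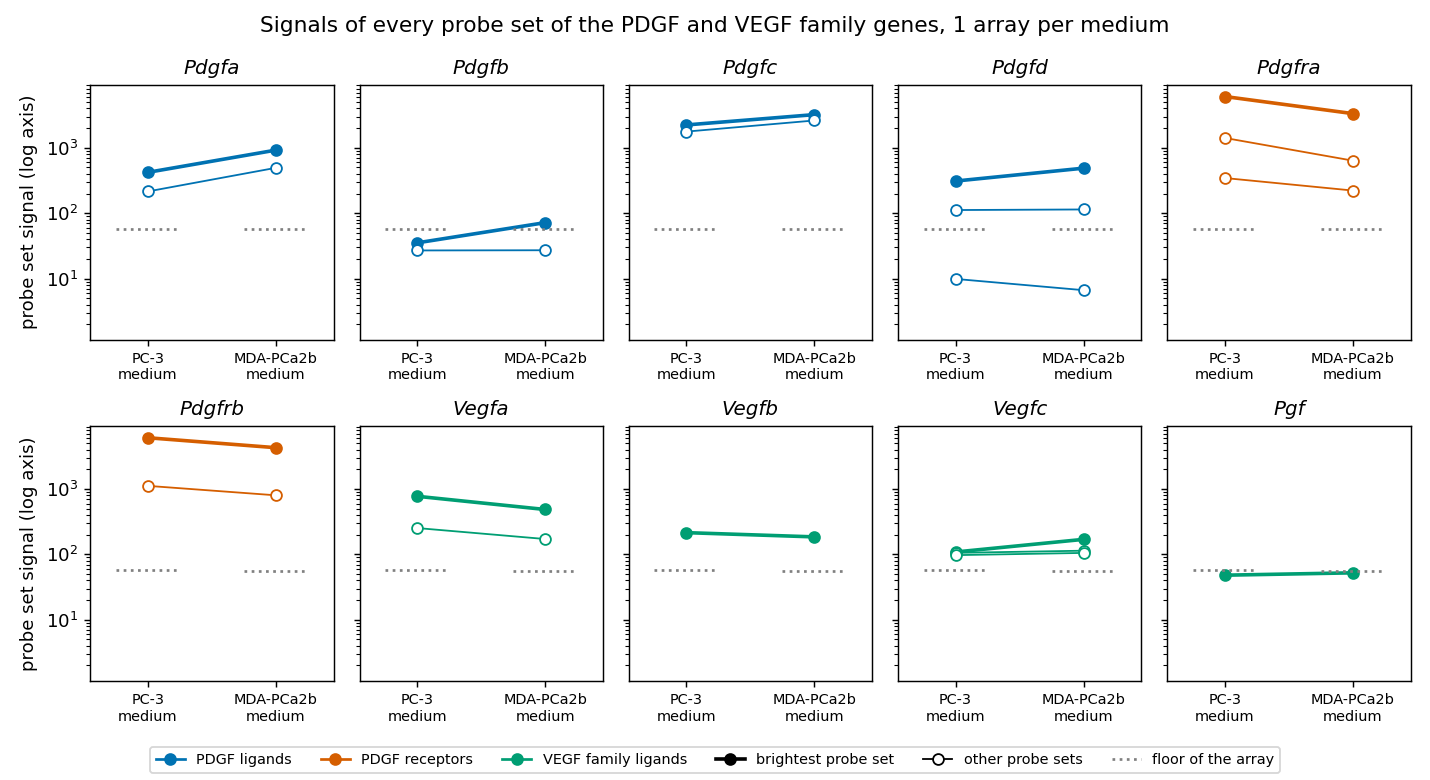
Signal of every probe set (log axis, array units) of the 10 genes on the array of PC-3 medium (left in each panel) and MDA-PCa2b medium (right); filled points and thick lines are the brightest probe set of a gene, open points its others, dotted lines the floor of each array. All lines of Pdgfa and Pdgfc run lower on the PC-3 side, all lines of Pdgfra, Pdgfrb and Vegfa run higher there, and Pgf and the weaker probe set of Pdgfb lie under the floor on both arrays.

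Pdgfa, which encodes the A chain, had the largest difference of the 10 genes. Its brightest probe set gave 422 with PC-3 medium and 923 with MDA-PCa2b medium, and its other probe set gave 215 with PC-3 medium and 495 with MDA-PCa2b medium. Both probe sets were therefore lower with PC-3 medium, 2.19-fold and 2.30-fold, with a mean log2 ratio of -1.17 ± 0.05 (SD over 2 probe sets of the same arrays). Each value exceeded the scatter between probe sets in its tertile of signal, 0.18 and 0.23.

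Pdgfc encodes the C chain, which is secreted in latent form and must be cut before it binds the alpha receptor. Its signals were 2239 with PC-3 medium and 3220 with MDA-PCa2b medium by the brightest probe set, and 1770 with PC-3 medium and 2620 with MDA-PCa2b medium by the other. The gene was 1.44-fold and 1.48-fold lower by these probe sets, a mean log2 ratio of -0.54 ± 0.03 (SD, 2 probe sets). The difference is under 1.5-fold but larger than the scatter of 0.18.

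Pdgfd, the gene of the latent D chain, gave no single answer. Its brightest probe set read 310 with PC-3 medium and 488 with MDA-PCa2b medium, 1.58-fold lower. A second probe set read 112 with PC-3 medium and 114 with MDA-PCa2b medium, a log2 ratio of -0.03. Its remaining probe set lay under the floor on both arrays. The mean of the measured probe sets was -0.34 ± 0.44 on the log2 scale, so whether Pdgfd differed depends on the probe set.

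Pdgfb encodes the B chain, the ligand known to recruit pericytes to vessels. Its brightest probe set read 35.2 with PC-3 medium, under the floor, and 71.7 with MDA-PCa2b medium, slightly above it. The ratio is therefore a bound, at least 1.24-fold lower. The other probe set read 26.9 with PC-3 medium and 27.1 with MDA-PCa2b medium, both under the floor. Pdgfb was thus close to or under the floor throughout.

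Among the receptors, Pdgfra, which marks mesenchymal progenitors and fibroblasts in many tissues, was higher by each of its 3 probe sets. The brightest gave 6094 with PC-3 medium and 3338 with MDA-PCa2b medium, 1.83-fold higher. The next gave 1417 with PC-3 medium and 636 with MDA-PCa2b medium, 2.23-fold higher. The weakest gave 345 with PC-3 medium and 222 with MDA-PCa2b medium, 1.56-fold higher. The probe sets agreed in direction and differed in size, with a mean log2 ratio of 0.89 ± 0.26 (SD, 3 probe sets), so that Pdgfra lies on either side of the 2-fold line depending on the probe set.

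Pdgfrb, the receptor gene of pericytes and other perivascular cells, was also higher, by less. Its signals were 6096 with PC-3 medium and 4293 with MDA-PCa2b medium by the brightest probe set, and 1119 with PC-3 medium and 802 with MDA-PCa2b medium by the other. The probe sets gave 1.42-fold and 1.395-fold, a mean log2 ratio of 0.49 ± 0.02 (SD, 2 probe sets).

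Mural cell markers, which share cells with Pdgfrb in tissue, were measured for 5 of 9 genes, with log2 ratios from -0.53 to 0.90 and a median of 0.16. The median was -0.44 for a floor at the 75th percentile, so its sign depends on the floor. For a floor at the 25th percentile and for log2(signal + 16), 2 of the list were at least 2-fold higher, where 426 and 527 of all genes were. Des was above the floor only with PC-3 medium (61.8, against 10.4 with MDA-PCa2b medium). Acta2, the smooth muscle actin gene, read 12854 with PC-3 medium and 16329 with MDA-PCa2b medium, and the pericyte gene Rgs5 was under the floor on both arrays. Above 0 were the channel genes Kcnj8 (0.90) and Abcc9 (0.38) and the receptor gene Notch3 (0.16), and below 0 were Cspg4 (-0.53) and Acta2 (-0.35). The summed signal of the list, most of it from Acta2, was 13981 with PC-3 medium and 17412 with MDA-PCa2b medium. The part of such cells in the receptor ratios was not tested.

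**Figure D2:**
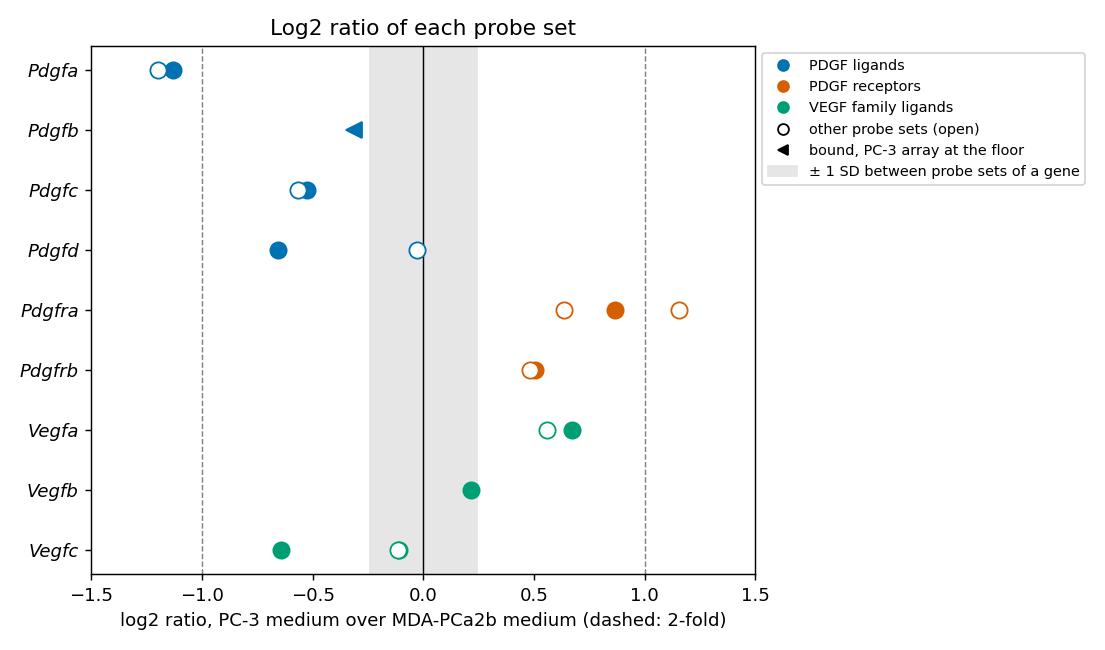
Log2 ratio of PC-3 medium over MDA-PCa2b medium (x axis) for every probe set above the floor on at least 1 array, by gene; filled points are the brightest probe set, open points the others, the triangle is a bound, the grey band is 1 SD of the scatter between probe sets of a gene (0.24) and dashed lines mark 2-fold. Probe sets of Pdgfa and Pdgfc lie left of the band and those of Pdgfra, Pdgfrb and Vegfa right of it, while Pdgfd and Vegfc each have 1 probe set outside and the others within.

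Of the VEGF family, Vegfa was higher. Its brightest probe set read 775 with PC-3 medium and 487 with MDA-PCa2b medium, and its other read 253 with PC-3 medium and 172 with MDA-PCa2b medium. These are 1.59-fold and 1.47-fold higher, a mean log2 ratio of 0.61 ± 0.08 (SD, 2 probe sets). Both values exceed the scatter in their tertiles of signal, 0.23 and 0.30.

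Vegfb, whose product is known for roles in heart and fat rather than in vessel sprouting, had 1 probe set, with 215 in PC-3 medium and 186 in MDA-PCa2b medium. Its log2 ratio of 0.22 is within the scatter of 0.30 at that signal. Vegfc, the lymphatic growth factor gene, had a log2 ratio of -0.64 by its brightest probe set (109 with PC-3 medium and 170 with MDA-PCa2b medium), a set of the _x_at kind that can match several transcripts. Its other probe sets read 106 and 97.5 with PC-3 medium, against 114 and 105 with MDA-PCa2b medium, and both gave -0.11. Vegfc therefore showed no difference beyond the scatter by these other probe sets. Pgf read 48.1 with PC-3 medium and 52.3 with MDA-PCa2b medium, under the floor on both arrays, and gets no ratio.

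In order of the brightest probe set's log2 ratio the genes ran Pdgfra (0.87), Vegfa (0.67), Pdgfrb (0.51), Vegfb (0.22), Pdgfc (-0.52), Vegfc (-0.64), Pdgfd (-0.66) and Pdgfa (-1.13). The scatter, pooled over all levels of signal, gives an SD of 0.34 for a difference between single probe sets. Only the gaps between Vegfb and Pdgfc (0.74) and between Pdgfd and Pdgfa (0.48) exceeded this SD, which is not a test. Other neighbours in this order could not be separated. The first gap depends on the probe set. Vegfc was at -0.11 by its other probe sets and Pdgfd at -0.34 with probe sets averaged, both between Vegfb and Pdgfc.

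**Figure D3:**
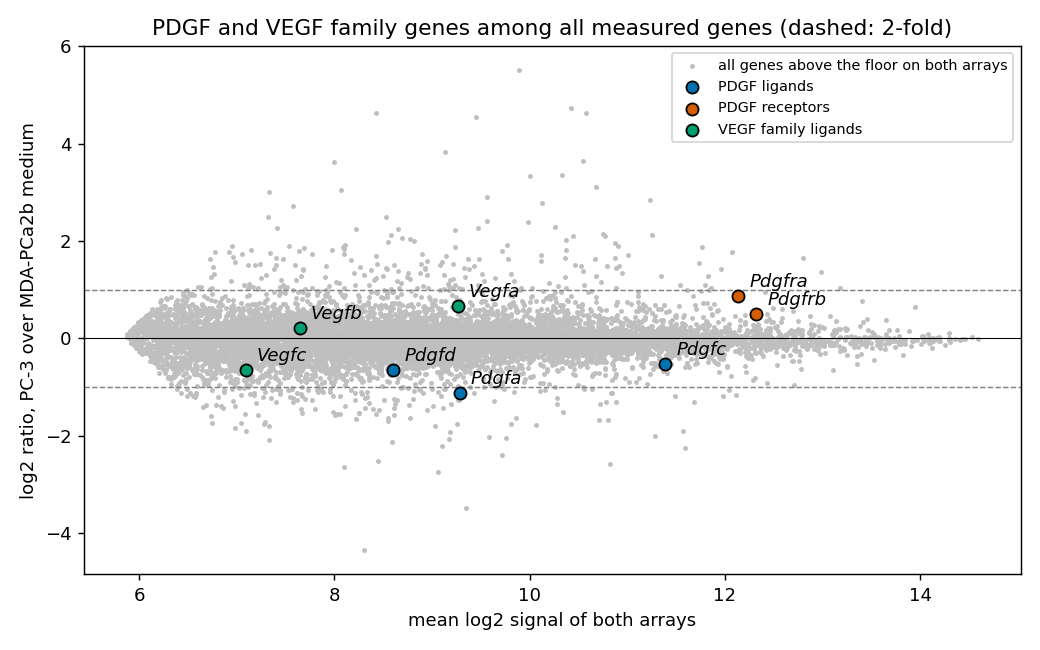
Log2 ratio of PC-3 medium over MDA-PCa2b medium (y axis) against the mean log2 signal of both arrays (x axis) for 10649 genes above the floor on both arrays (grey), with the 8 measured PDGF and VEGF family genes coloured by role; dashed lines mark 2-fold. Pdgfa alone lies beyond the lower dashed line, and the receptors lie between 0 and the upper one at high signal.

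Partners of these ligands on the cell surface differed in opposite directions. Nrp2, a co-receptor for VEGF-C and for semaphorins, read 2931 with PC-3 medium and 6103 with MDA-PCa2b medium, 2.08-fold lower, and its other 3 probe sets gave log2 ratios from -1.06 to -0.82. Nrp1, the co-receptor for VEGF-A, read 1720 with PC-3 medium and 1380 with MDA-PCa2b medium, a log2 ratio of 0.32, with 0.29 to 0.45 by its other 3. The VEGF receptor genes Flt1, Kdr and Flt4 were under the floor on both arrays by every probe set.

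Genes that process or bind the ligands included 11 measured of 15, of which 0 differed 2-fold. Of all measured genes 1.90% were at least 2-fold higher and 1.68% lower. A2m, the gene of a protease inhibitor that binds PDGF, read 104 with PC-3 medium and 38.7 with MDA-PCa2b medium. The second value is under the floor, so the gene was at least 1.84-fold higher. Under log2(signal + 16), or a floor at the 25th percentile, 1 gene of the list was at least 2-fold higher. Over all genes 527 and 426 were, in the same order, against 202 in the main setting. The largest ratios measured on both arrays were 0.85 for Adamts1, a protease gene whose product binds VEGF-A, and -0.67 for the proprotein convertase gene Pcsk6; the median was 0.21. Furin, a convertase gene for PDGF chains, had a log2 ratio of 0.21 and Plat, the tissue plasminogen activator gene that activates PDGF-C, 0.05. Furin and Plat were named with their values already known.

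Among 20 genes of PDGF receptor signalling, all measured, 2 were at least 2-fold higher and 0 lower, where 1.90% and 1.68% of all measured genes were, and the median log2 ratio was 0.11. Slc9a3r1, a scaffold gene whose product binds the tail of the beta receptor, read 2380.5 with PC-3 medium and 841 with MDA-PCa2b medium, 2.83-fold higher (1.30 and 1.41 on the log2 scale by its other probe sets). Ptpn2, a phosphatase gene whose product acts on the beta receptor, read 4377 with PC-3 medium and 2038 with MDA-PCa2b medium, 2.15-fold higher, with 1.10 and 0.32 on the log2 scale by its other measured probe sets.

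Of 13 measured regulators of Vegfa 10 had a log2 ratio above 0, where 44.1% of all measured genes had, and 2 were at least 2-fold higher, where 1.90% were: Epas1, the HIF-2 alpha gene, with 3611 in PC-3 medium and 844 in MDA-PCa2b medium (4.28-fold), and the oxygen-sensing hydroxylase gene Egln3 (3.01-fold). Of 19 measured direct HIF targets 14 were above 0 and 3 at least 2-fold higher, against the same shares of all genes, namely Adm (2.87-fold), Pfkfb3 (2.67-fold) and Bnip3 (2.04-fold). Adm was measured on both arrays only by a probe set of the _x_at kind. Its other probe set, at the floor with MDA-PCa2b medium, gave a log2 ratio of at least 1.27. Without probe sets of the _x_at and _s_at kind 2 targets were at least 2-fold higher. Bnip3 had 1 probe set. The medians were 0.28 for the regulators and 0.20 for the targets. The regulators mix genes that raise Vegfa with genes that restrain it or HIF, such as Vhl and Egln3. Their count and median therefore give no direction for Vegfa. Many ratios in these lists lay within the scatter, such as those of Egln1 (0.14) and Pgk1 (0.12), and P4ha1 (-0.35), Ero1a (-0.28) and Car9 (-0.16) were among the targets below 0. Among 14 measured angiogenic factors outside the 10 genes, 2 were at least 2-fold higher, where 1.90% of all genes were, and 1 at least 2-fold lower, where 1.68% were. The higher ones were Angptl4 (4.39-fold, by a single probe set of the _s_at kind) and Efna1 (2.01-fold, 0.92 on the log2 scale by its other probe set). Their count was 1 without probe sets of the _x_at and _s_at kind, under log2(signal + 16), for averaged probe sets and for a floor at the 75th percentile. The 1 that was at least 2-fold lower was Ccn1 (2.05-fold, with log2 ratios from -1.19 to -0.92 by its other probe sets). Ccn1 was just under 2-fold, leaving 0 lower, once the median of all genes was set to 0. The count lower was 2 for a floor at the 25th percentile and under log2(signal + 16), where 382 and 436 of all genes were lower. The median of these factors was 0.10.

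**Figure D4:**
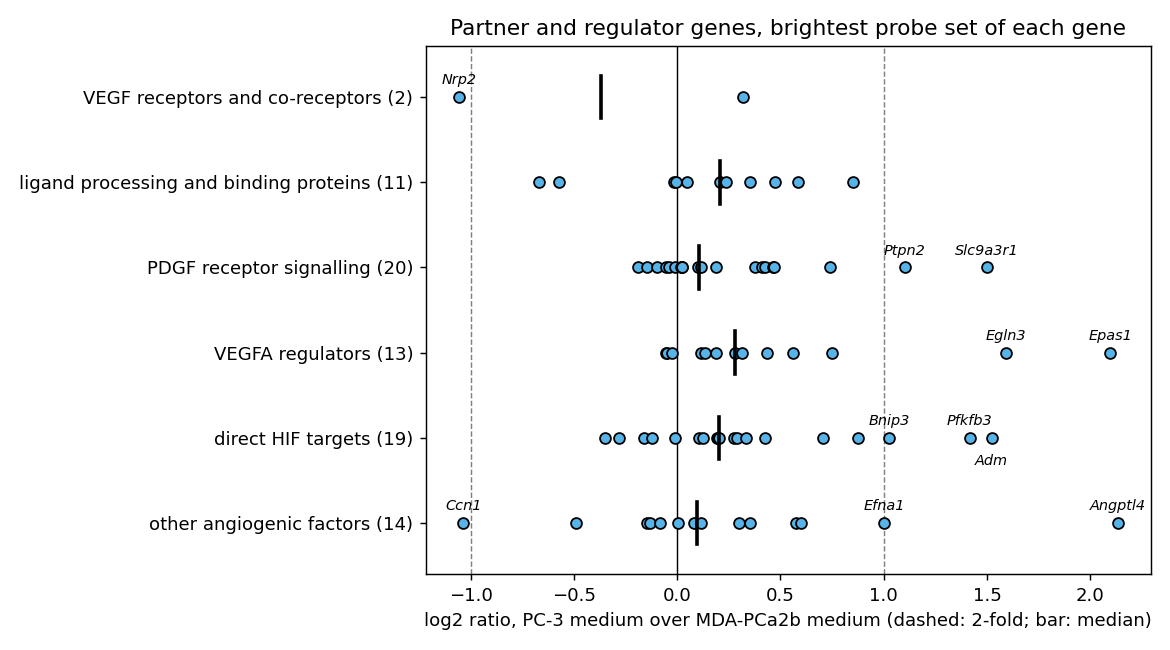
Log2 ratio of PC-3 medium over MDA-PCa2b medium (x axis) for the brightest probe set of each measured gene in 6 lists (rows, number of genes in brackets); bars are medians, dashed lines mark 2-fold, and genes at or beyond 2-fold are named. Nrp2 and, before centring, Ccn1 lie beyond 2-fold on the lower side, and all other named genes on the higher side.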

How the data were processed

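RNA from primary mouse osteoblasts was hybridised to 2 Affymetrix arrays, 1 per medium. The deposited table gives the intensity of each probe set on a linear scale. The submitters' processing notes name GCOS 1.4 and MAS5 as the authors' tools. Scaling target, detection calls and background settings are not given in the sources used here. Per the labels, the medium held fetal calf serum at 10%, differentiation used ascorbic acid at 50 µg/ml and beta-glycerophosphate at 10 mM, and cRNA was made from 5 µg of RNA. The number of arrays limits the precision.

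Of 45101 probe sets 64 controls were left out. The platform annotation gave 34958 probe sets 1 gene, 932 several and 9211 none; those with several were not named, and 0 symbols changed on matching to RefSeq by Entrez identifier. Signals under the 50th percentile of their array were set to that floor before log2. The ratio is log2 with PC-3 medium minus log2 with MDA-PCa2b medium. A gene was represented by its brightest probe set (mean of the arrays); with 1 array at the floor the ratio is a bound, and with both none is given. The scatter is the pooled SD of measured probe sets around their gene's mean.

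The 10 genes and all lists were chosen with earlier results of these data known. Named were all 10 genes and, of each partner list, those at least 2-fold different (at most 4) or else the 2 largest; the VEGF receptor list was named in full and other exceptions, such as markers and genes within the scatter, were named with their values known. A planned comparison of the proteins was not made. Windows of the promoter table were read as the 250 bases before each start. Other settings tried were a floor at the 25th or the 75th percentile, log2(signal + 16) with no floor, quantile normalisation, centring of the ratios, probe sets averaged, probe sets of the _x_at and _s_at kind omitted, and thresholds of 1.5-fold and 3-fold. Python 3.11.15, numpy 2.4.6 and pandas 2.3.3 were used, and the scripts were tested on simulated data.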

Additional observations from a re-analysis of the deposited data

How the results depend on the processing

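No paired analysis was possible because each medium has 1 array. Over the 7 alternative settings of floor, scaling and probe set, every gene with a ratio kept its direction, and 55 of 60 values moved by less than the scatter between probe sets. The exceptions were the bound of Pdgfb (-1.03 for a floor at the 25th percentile, -0.78 for log2(signal + 16), against -0.31), Pdgfd (-0.34 with probe sets averaged, against -0.66) and Vegfc (-0.29 with probe sets averaged and -0.11 without probe sets that can match several transcripts, against -0.64). Many of the 60 values could hardly move. A change of floor leaves the ratio of a gene well above it unchanged, and centring only subtracts the median of all genes, -0.04. The count of 55 is therefore no measure of robustness. Pdgfa ranged from -1.17 to -1.09 and Pdgfra from 0.87 to 0.91. A floor at the 25th percentile made 2 of the 10 genes, Pdgfa and Pdgfb, at least 2-fold lower. At 3-fold 0 were higher and 0 lower, where 79 of all 10649 measured genes were higher and 36 lower. At 1.5-fold 2 genes were higher and 3 lower by their brightest probe set, where 5.18% and 6.23% of all measured genes were. Of those 3, Pdgfd and Vegfc did not pass 1.5-fold by their other measured probe sets. The median of the measured genes lay between -0.32 and 0.05, so its sign depends on the setting. A floor at the 75th percentile left 6 genes measured, and Vegfb, Vegfc and Pdgfb had no value; it also left 1 regulator of Vegfa, 1 HIF target and 1 other angiogenic factor at least 2-fold higher. Over all genes the counts at least 2-fold higher and lower came to 426 and 382 for a floor at the 25th percentile and 90 and 56 at the 75th. They were 527 and 436 of 18193 genes for log2(signal + 16), against 202 and 179 of 10649 in the main setting. The number of measured genes changes with the floor, so the counts at the 25th and 75th percentiles are not shares of 10649. Nrp2 with probe sets averaged was no longer 2-fold lower (-0.97), nor was Ptpn2 2-fold higher (0.84). In all, 307 of 345 recomputed values, lists included, moved by less than the scatter or, for counts, by at most 1.5 times. This count, like that of 55, includes settings that could hardly change a value. The spread between cultures is unknown.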

Other observations

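Some relatives outside the 10 genes were looked at after the values were known. Pdgfrl, a gene named for its likeness to PDGF receptors, read 1791 with PC-3 medium and 2105 with MDA-PCa2b medium, a log2 ratio of -0.23, while both receptor genes were higher. Vegfd, the gene of another lymphatic growth factor, is already counted among the 14 measured angiogenic factors above. It had log2 ratios of 0.08, 0.45 and 0.29 by its 3 probe sets, with 376 in PC-3 medium and 356 in MDA-PCa2b medium by the brightest. Of 6 megakaryocyte and platelet markers on the array, a cell type rich in PDGF chains, 3 were measured, with log2 ratios from -0.30 to -0.05; the chemokine gene Pf4 read 635 with PC-3 medium and 658 with MDA-PCa2b medium. Of the osteoblast markers 8 of 8 had a log2 ratio below 0, where 55.9% of all measured genes had, with a median of -0.26. Dmp1 was 4.14-fold and Ifitm5 6.00-fold lower, and 1.68% of all measured genes were at least 2-fold lower. By their brightest probe sets Col1a1 (-0.004), Col1a2 (-0.02), Phex (-0.10) and Ibsp (-0.12) lay within the scatter of 0.18 at their signal. Other probe sets gave -0.15 for Col1a1, -0.08 and -0.59 for Col1a2, and -0.36 for Ibsp.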
